A study of Mus musculus with 10 samples.

Results

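The cytosolic ribosomal protein genes are the genes that encode the protein subunits of the ribosomes in the cytoplasm. They were taken by symbol from the gene counts of the microglial fraction. The rule kept every symbol that starts with Rpl or Rps and a number, together with Rplp0, Rplp1, Rplp2 and Rpsa. It left out the Rps6k kinases and symbols that carry -ps for pseudogene. This rule gave 88 of the 24421 gene symbols listed. Of these, 46 encode canonical proteins of the large 60S subunit and 31 encode canonical proteins of the small 40S subunit, so that 77 genes are canonical. A further 10 are paralogs or retrocopies of a canonical gene. The last one, Rps19bp1, matches the rule by its name but encodes a protein that binds Rps19 and is not part of the ribosome. After the filter on low counts 86 genes could be tested, and the paralogs Rpl10l and Rpl39l, both known from testis, were left out by it.

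The ribosome reads messenger RNA on its small subunit and joins amino acids on its large subunit. Its proteins are needed in balanced numbers. Their messages share a tract of C and T bases at the 5′ end, the TOP motif. Through it the mTORC1 kinase pathway sets how strongly they are translated. Ribosomal protein messages are among the more abundant messages of most cells, and in brain tissue each cell type, neurons and glia alike, contributes to them. In bulk RNA a lower number of cells and less message per cell cannot be told apart.

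Microglia are the resident macrophages of the brain. They had been separated from the cortex of 9-month-old mice by papain digestion and an Optiprep density gradient, and total RNA was sequenced after removal of ribosomal RNA. WT animals gave 3 libraries, APP/PS1 animals 4, and APP/PS1 animals treated with N-acetyl sphingosine (APP/PS1+N-AS) gave 3. APP/PS1 mice carry human transgenes for mutated APP and presenilin 1, and they deposit amyloid in the cortex. N-AS was given under the skin at 30 mg/kg every day for 8 weeks, beginning at 7 months of age. Per the study, APP/PS1 mice that did not get N-AS received vehicle, and the sample labels name no injection for them or for WT mice. Cells of 2 mice were pooled for a library, and libraries are the replicates here, so the spread between single mice is not seen. The comparison of APP/PS1 with WT asks how this microglial fraction differs in the disease model. The comparison of APP/PS1+N-AS with APP/PS1 asks how it differs with the treatment.

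The libraries held between 8805804 and 19432075 counts, of which 55003 to 259029 fell on the ribosomal protein genes. Markers of several cell types were present in every library, so the fraction was not microglia alone. Some of the marker levels moved with the groups. The summed level of 14 microglial markers was 840 to 1225 CPM (counts scaled to the size of the library) in WT, 2756 to 3510 CPM in APP/PS1 and 1663 to 2191 CPM in APP/PS1+N-AS libraries, and 12 of the 14 were called higher in APP/PS1 than in WT (median log2 fold change 1.67). Of 10 oligodendrocyte markers 3 were called lower in edgeR and 7 in DESeq2 (median −1.30). Their sum was 2376 to 6722 CPM in WT, 1875 to 4621 CPM in APP/PS1 and 2818 to 3815 CPM in APP/PS1+N-AS libraries. Neuronal markers summed to 6181 CPM in WT replicate 3 and to 3084 to 4138 CPM in the other libraries. Of these 10 markers, 0 were called or had an unadjusted p under 0.05 in edgeR, DESeq2 or limma. Their median log2 fold change was −0.26, with 8 negative and 2 positive. Of 8 astrocyte markers, Gfap and S100b were called higher, but 4 of the 8 had positive and 4 had negative fold changes (median −0.05). Of the markers of choroid plexus (5 tested), neutrophils (5), endothelium (6) and border macrophages (6), 0 were called by any of these tools, with medians of 0.89, 2.15, 0.18 and 0.00. In edgeR 1 of these markers, of choroid plexus, had an unadjusted p under 0.05. The neutrophil markers summed to 136 CPM in APP/PS1 replicate 3, but to 4.33 to 7.16 CPM in the other APP/PS1 libraries and 5.26 to 13.8 CPM in WT. The choroid plexus markers summed to 15.8 CPM in WT replicate 3 and 18.3 CPM in APP/PS1+N-AS replicate 3, and to 407 CPM or more in the other libraries. Xist, the RNA of the inactive X chromosome of females, was counted 33 to 37 times in a WT library, 5253 to 11188 times in an APP/PS1 library, and 7024, 8848 and 29 times in the 3 treated ones. The study's methods name male mice, and the sex that Xist marks and the genotype cannot be told apart in the comparison of APP/PS1 with WT.

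The ribosomal protein genes took up a small and differing share of the libraries. Their share of all counts was 0.625%, 0.716% and 0.639% in the WT libraries. It was 0.879%, 0.940%, 1.32% and 1.33% in APP/PS1, and 0.780%, 0.927% and 0.776% in APP/PS1+N-AS libraries. Every APP/PS1 library but the first lay above every treated library, and every WT library lay below all others. The group means were 0.660% ± 0.0490 (SD, n = 3), 1.12% ± 0.243 (n = 4) and 0.828% ± 0.0865 (n = 3). Because messages differ in length, levels of different genes were compared per kilobase (kb) of the median annotated transcript. On this scale the canonical genes reached from 12.3 to 577 CPM per kb, with quartiles of 75.6 and 167 and a median of 109 over all 10 libraries. Rpl26, a 60S protein near the exit of the nascent chain, had the highest level per kb. Its mean in CPM was 256 ± 26.6 in WT, 435 ± 82.6 in APP/PS1 and 329 ± 51.6 in APP/PS1+N-AS. Its log2 fold change between APP/PS1 and WT of 0.76 (SE 0.19) missed the threshold (adjusted p = 0.0591, edgeR).

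The 77 canonical genes moved together from library to library. Taken relative to the mean of the WT libraries, their median log2 level was 0.00, 0.18 and −0.19 in the WT libraries. In the APP/PS1 libraries it was 0.58, 0.55, 0.85 and 0.89, and in the treated libraries 0.37, 0.51 and 0.13. No library of WT reached the lowest library of APP/PS1, and all treated libraries lay below all APP/PS1 libraries. Within a library the middle 50% of the genes spanned 0.143 to 0.278 log2 units, which is less than the distance between the WT and APP/PS1 medians. Counted gene by gene, 0, 2 and 1 of the 77 genes were above their own mean over all libraries in WT, and 74, 73, 77 and 77 were in APP/PS1. In the treated libraries the numbers were 30, 74 and 0, so that on this count the treated libraries covered nearly the whole range.

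**Figure D1:**
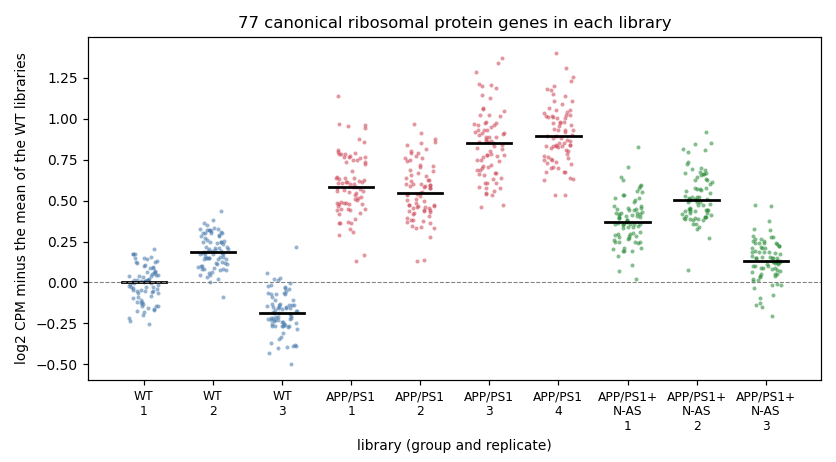
Each point is 1 of the 77 canonical ribosomal protein genes in 1 library, with its log2 CPM minus the mean of the WT libraries on the vertical axis, the library on the horizontal axis and a black bar at the median. The medians of the 4 APP/PS1 libraries (0.55 to 0.89) lie above those of the treated libraries (0.13 to 0.51) and of the WT libraries (−0.19 to 0.18).

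Many ribosomal protein messages were higher in the microglial fraction of APP/PS1 mice than in that of WT mice. Of the 86 genes tested, 45 were called higher and 0 lower at an adjusted p under 0.05 in edgeR, whereas 2.67% of all 18727 genes tested were called higher. All 45 were canonical: 25 of 46 genes of the 60S subunit and 20 of 31 genes of the 40S subunit. The log2 fold change was positive for 77 of 77 canonical genes, between 0.40 for Rpl15 and 1.14 for Rps28, with a median of 0.70 for the 60S and 0.74 for the 40S genes. Over the 86 genes the median was 0.71, a 1.64-fold difference, beside a median of −0.07 over all genes tested. At an unadjusted p under 0.05, 79 of the 86 were higher. In 77 of the 86 every APP/PS1 library lay above every WT library, a pattern that 8.15% of all genes tested showed. Among the canonical genes 2 had overlapping groups, Rpl15 and Rpl27, which are named here for that reason after their values were seen. The call depended on single libraries: 6 genes were called without WT replicate 1, without APP/PS1 replicate 3 or without APP/PS1 replicate 4, 26 without WT replicate 3 and 29 without APP/PS1 replicate 2. In each of these fits all 77 canonical fold changes stayed positive. The higher level of these genes and the higher level of the microglial markers occurred in the same libraries, and the part of the markers in the difference was not tested.

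All genes of the ribosomal stalk were among those called. The stalk is the flexible arm of the large subunit that recruits the elongation factors, and it is built from Rplp0, Rplp1 and Rplp2 on a base formed with Rpl12. Rplp1 stood at 76.8, 96.9 and 84.8 CPM in the WT libraries, at 150.3, 161, 199 and 194 CPM in the APP/PS1 libraries and at 129, 135 and 108 CPM in the treated libraries. The groups did not overlap, with all treated libraries between the other groups. The log2 fold change of APP/PS1 against WT was 1.03 (SE 0.16, adjusted p = 0.00562, edgeR). Rpl12 had 67.5, 62.5 and 55.4 CPM in WT, 105, 104, 142 and 136 CPM in APP/PS1, and 86.6, 91.7 and 73.5 CPM in APP/PS1+N-AS libraries. Its groups were separated in the same order, and its log2 fold change was 0.98 (SE 0.16, adjusted p = 0.00768, edgeR). Rplp2 reached 206, 262, 297 and 332 CPM in APP/PS1 against 118, 149 and 136 CPM in WT (log2 fold change 1.03, SE 0.20, adjusted p = 0.0188, edgeR). Rplp0 was higher by 0.94 (SE 0.19, adjusted p = 0.0228, edgeR). The median log2 fold change of the 4 stalk genes was 1.00, beside 0.74 for the canonical genes as a whole.

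The gene with the lowest adjusted p was Rpl10a, a 60S protein of the L1 stalk, where spent transfer RNA leaves the ribosome. Its level was 32.4, 35.4 and 32.4 CPM in WT, 57.0, 59.8, 65.9 and 71.9 CPM in APP/PS1, and 45.8, 58.6 and 46.3 CPM in the treated libraries. The WT libraries were close together and far below the APP/PS1 libraries, and 1 treated library reached into the APP/PS1 range. The log2 fold change was 0.93 (SE 0.13, adjusted p = 0.00427, edgeR). Rpl35a, a 60S protein mutated in some patients with Diamond-Blackfan anaemia, had 57.5, 67.9 and 53.6 CPM in WT and 115, 91.7, 112 and 128 CPM in APP/PS1 libraries. Its groups did not overlap and its log2 fold change was 0.91 (SE 0.15, adjusted p = 0.00817, edgeR). Rpl10a, Rplp1 and Rpl35a were called in all 17 alternative fits of this comparison, and Rpl12 in 16.

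In the small subunit the largest difference was that of Rps28, a protein at the exit of the messenger RNA channel. It had 27.5, 25.8 and 20.4 CPM in WT, 44.7, 44.0, 63.0 and 64.4 CPM in APP/PS1, and 33.2, 43.7 and 30.4 CPM in the treated libraries. The 3 groups were separated, although the second treated library came within 1 CPM of the lowest APP/PS1 library. Its log2 fold change between APP/PS1 and WT, 1.14 (SE 0.20, adjusted p = 0.0116, edgeR), was the largest of all members. Rps9, which helps to form the decoding region, had 49.1, 73.0 and 52.1 CPM in WT against 105 to 136 CPM in APP/PS1 libraries, without overlap (log2 fold change 1.05, SE 0.19, adjusted p = 0.0141, edgeR). Rpsa, also known as the laminin receptor, was higher by 0.79 (SE 0.17, adjusted p = 0.0297, edgeR), from 196 ± 22.7 CPM (n = 3) to 338 ± 49.3 CPM (n = 4).

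**Figure D2:**
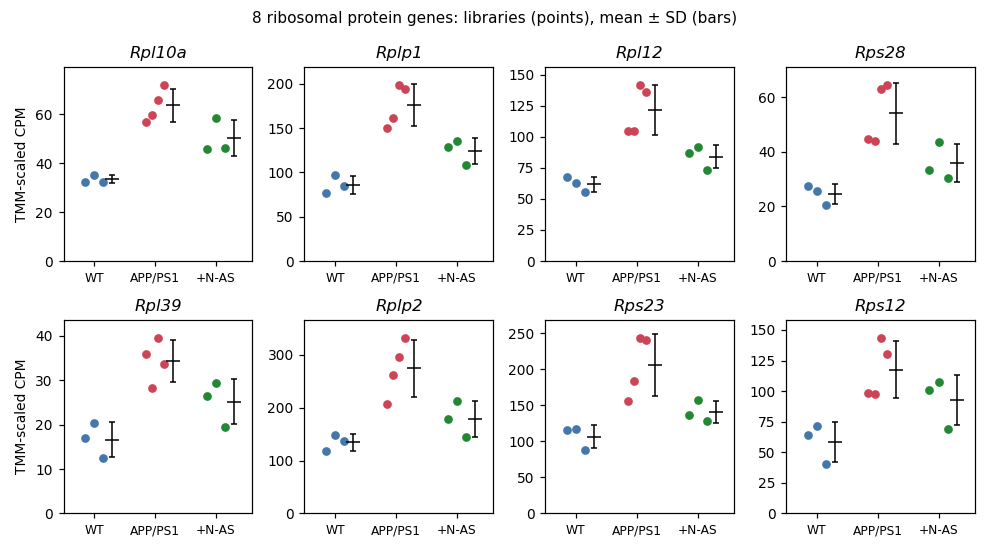
TMM-scaled CPM of 8 ribosomal protein genes, with 1 point per library for WT, APP/PS1 and APP/PS1+N-AS mice and a bar at the mean ± SD beside each group; each vertical axis starts at 0. In every panel the 4 APP/PS1 libraries lie above the 3 WT libraries, as for Rpl10a with 57.0 to 71.9 against 32.4 to 35.4 CPM.

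The sequence around the start of these genes is given for those with the lowest adjusted p or the largest fold change. Rplp1 belongs to them too, but had no promoter entry and is not shown. The windows run from 60 bases before to 20 bases after the start that RefSeq lists first, in the build GRCm38.p6, and capitals mark a run of at least 7 C and T bases that begins with C within 10 bases of the start, a loose form of the TOP motif. They lie at chr17:28328411-28328490 (plus strand) for Rpl10a, chr2:32961652-32961731 (plus strand) for Rpl12, chr16:33056393-33056472 (plus strand) for Rpl35a, chr17:33824543-33824622 (minus strand) for Rps28, chrX:37085203-37085282 (minus strand) for Rpl39 and chr7:3703981-3704060 (plus strand) for Rps9.
Rpl10a: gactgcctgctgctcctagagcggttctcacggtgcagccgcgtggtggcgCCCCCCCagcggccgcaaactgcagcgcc
Rpl12: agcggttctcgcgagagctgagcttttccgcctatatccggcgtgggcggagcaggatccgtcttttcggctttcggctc
Rpl35a: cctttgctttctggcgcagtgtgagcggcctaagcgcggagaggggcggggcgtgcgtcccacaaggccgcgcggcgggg
Rps28: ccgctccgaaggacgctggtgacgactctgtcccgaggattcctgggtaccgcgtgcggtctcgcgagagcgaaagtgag
Rpl39: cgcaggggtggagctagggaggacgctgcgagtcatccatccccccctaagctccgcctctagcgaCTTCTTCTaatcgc
Rps9: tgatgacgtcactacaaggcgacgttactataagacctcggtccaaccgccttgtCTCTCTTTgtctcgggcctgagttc
Rpl10a, Rpl39 and Rps9 carried such a run at this start, and Rpl12, Rpl35a and Rps28 did not. RefSeq promoter entries were at hand for 67 of the 88 genes, 57 of them canonical. A run of this kind was found at 23 of the 57 canonical starts (40.4%), beside 12.2% of 27025 promoters of all genes. The median log2 fold change between APP/PS1 and WT was 0.74 for the 23 genes with the run, of which 14 were called. It was 0.74 for the 34 genes without it, of which 19 were called. Tracts that begin more than 10 bases from the listed start count as absent here. The split therefore cannot show whether the TOP motif goes with response. In the 300 bases around the start, on either strand, the ETS core CCGGAAG was found in 40.4% of the canonical promoters and in 9.12% of all promoters. The letters AAGATGG, part of the YY1 site, were found in 14.0% and 6.48%, the GC box GGGCGG in 59.6% and 35.9%, and TATAAA in 8.77% and 14.2%. Matches to CCGGAAG and AAGATGG can overlap where one runs into the other, and a match describes only the letters.

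The 4 X-linked members, Rpl10, Rpl36a, Rpl39 and Rps4x, were all called higher in APP/PS1, with a median log2 fold change of 0.84. Rpl39, a small protein that lines the exit tunnel, had 17.0, 20.4 and 12.4 CPM in WT, 35.8, 28.3, 39.6 and 33.8 CPM in APP/PS1, and 26.5, 29.4 and 19.6 CPM in the treated libraries. All APP/PS1 libraries were above all WT libraries, and the third treated library, which also had few Xist reads, was below the highest WT library (log2 fold change 1.05, SE 0.20, adjusted p = 0.0184, edgeR). Rps4x, whose human counterpart escapes X inactivation, was higher by 0.85 (SE 0.17, adjusted p = 0.0220, edgeR), with 45.9 to 67.5 CPM in WT and 99.2 to 116 CPM in APP/PS1. Rpl10, which matures the large subunit in the cytoplasm, was higher by 0.80 (SE 0.17, adjusted p = 0.0295, edgeR), and Rpl36a by 0.83 (SE 0.16, adjusted p = 0.0201, edgeR). The Xist reads of the libraries moved with these values, and their part in them was not tested. The autosomal members carried the remaining 41 calls.

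Rpl5 and Rpl11, which form a particle with 5S ribosomal RNA that can bind Mdm2 and stabilise p53, were on either side of the threshold. Rpl5 was called, with 216, 259 and 201 CPM in WT against 345, 339.8, 428 and 405 CPM in APP/PS1 (log2 fold change 0.75, SE 0.16, adjusted p = 0.0304, edgeR). Rpl11 had 62.8, 69.7 and 60.5 CPM in WT and 87.7, 88.3, 99.5 and 104 CPM in APP/PS1, groups that did not overlap, with a log2 fold change of 0.56 (SE 0.14) at an adjusted p of 0.0504 in edgeR. Of the 16 members linked to Diamond-Blackfan anaemia, an inherited failure of red cell production, 7 were called higher (43.8%), beside 58.4% of the canonical genes. All 16 had positive fold changes (median 0.75), as had all 77 canonical genes. Of the other members named for a high CPM, Rpl13a was higher by 0.81 (SE 0.18, adjusted p = 0.0381, edgeR) and Rpl21 by 0.71 (SE 0.16, adjusted p = 0.0410, edgeR). Splitting the canonical genes at their median transcript length of 774 bases gave median log2 fold changes of 0.76 for the 38 shorter and 0.70 for the 39 longer genes. The 30 genes with at least 1 snoRNA gene inside them on the same strand had a median of 0.75, of which 21 were called, and the 47 others had 0.71, of which 24 were called.

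**Figure D3:**
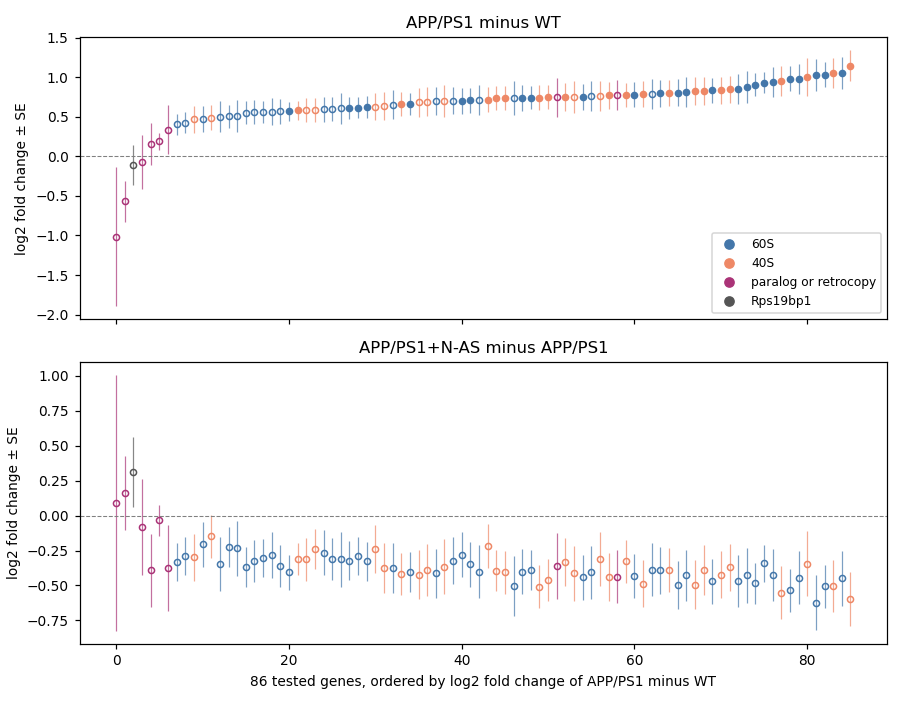
Log2 fold change ± SE of the 86 tested genes for APP/PS1 minus WT (top) and APP/PS1+N-AS minus APP/PS1 (bottom), in the same order in both panels and coloured by class; filled points passed an adjusted p of 0.05 in edgeR and open points did not. All 77 canonical genes lie above 0 in the top panel and below 0 in the bottom panel, where every point is open, and both panels use the same APP/PS1 libraries.

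The paralogs and retrocopies did not follow the canonical genes as a class. Of the 8 tested, 0 were called by edgeR in this comparison, where 2 had an unadjusted p under 0.05, and DESeq2 and limma each called 1, Rps27rt. Their median log2 fold change was 0.17, while 6 of the 8 parent genes were called by edgeR with a median of 0.78. Rpl3l, a form of Rpl3 known from muscle, was nearly silent at 0.00 to 1.19 CPM and had a log2 fold change of −1.02 (SE 0.88), while Rpl3 itself was higher by 0.61 (SE 0.14, adjusted p = 0.0440, edgeR). Rps4l, a retrocopy of Rps4x, had 3.80, 4.77 and 6.03 CPM in WT and 3.37, 4.46, 2.19 and 3.24 CPM in APP/PS1 libraries (log2 fold change −0.57, SE 0.26, adjusted p = 0.302, edgeR). Its groups overlapped. Rpl7l1, related to a yeast assembly factor of the large subunit, was steady at 43.9 to 57.6 CPM over all 10 libraries (log2 fold change 0.19, SE 0.11). Rpl22l1, a paralog that can take the place of Rpl22, had 3.68 to 9.22 CPM (log2 fold change 0.33, SE 0.31). Rps27l, which is induced by p53, had 2.89 to 6.42 CPM (log2 fold change 0.16, SE 0.26). Rps19bp1 had 4.87 to 9.82 CPM and a log2 fold change of −0.10 (SE 0.25).

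Rpl36al, a close paralog of Rpl36a, varied widely within the groups. Its level was 101, 159 and 55.7 CPM in WT, 91.0, 70.2, 84.4 and 155 CPM in APP/PS1 and 84.5, 83.3 and 116 CPM in the treated libraries. The highest and the lowest of all 10 libraries were both WT, and the log2 fold change of −0.07 (SE 0.35) changed sign in several alternative fits. It overlaps another annotated gene on the same strand, Gm49383, to which counts could also belong. Per kb it was above Rpl36a in 7 of 10 libraries.

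The retrocopies Rps27rt and Rpl37rt had values close to those of their parents in fold, but not in level. Rps27rt had 69.4, 76.2 and 45.2 CPM in WT, 96.0, 107, 114 and 116 CPM in APP/PS1, and 84.5, 90.5 and 65.3 CPM in the treated libraries. All APP/PS1 libraries lay above all others, at a log2 fold change between APP/PS1 and WT of 0.77 (SE 0.19) and an adjusted p of 0.0544 in edgeR. Rps27 itself, whose protein carries a zinc finger, stood at 12.5 to 19.0 CPM in WT and 27.3 to 30.4 CPM in APP/PS1 (log2 fold change 0.77, SE 0.18, adjusted p = 0.0403, edgeR). Per kb the retrocopy was above its parent in all 10 libraries, with 121 to 310.1 against 36.3 to 88.2 CPM per kb. The gene on chromosome 9 has no intron and overlaps Osbpl10 on the opposite strand, and its first bases repeat those of the parent, as the windows at chr3:90213629-90213708 (minus strand) for Rps27 and chr9:114982720-114982799 (minus strand) for Rps27rt show.
Rps27: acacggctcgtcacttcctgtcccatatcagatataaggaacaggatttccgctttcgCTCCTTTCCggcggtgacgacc
Rps27rt: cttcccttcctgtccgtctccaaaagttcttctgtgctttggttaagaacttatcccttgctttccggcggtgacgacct
In these windows capitals again mark the run of C and T at the start. The retrocopy's transcript bases 1 to 38 are identical to bases 2 to 39 of the parent's. How reads that match both copies were counted is not given in the sources used here, so the split between the copies is uncertain. Rpl37rt had 8.66 ± 2.90 CPM in WT (SD, n = 3) and 14.6 ± 3.00 CPM in APP/PS1 (n = 4) with overlapping groups (log2 fold change 0.74, SE 0.24, adjusted p = 0.138, edgeR). GENCODE M21 lists 291 pseudogenes that are named after 59 of the 77 canonical genes, and the same uncertainty applies to these. Of 7 such pseudogenes listed in the files and tested, Rpl34-ps1 was called higher, and the median log2 fold change was 0.39.

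**Figure D4:**
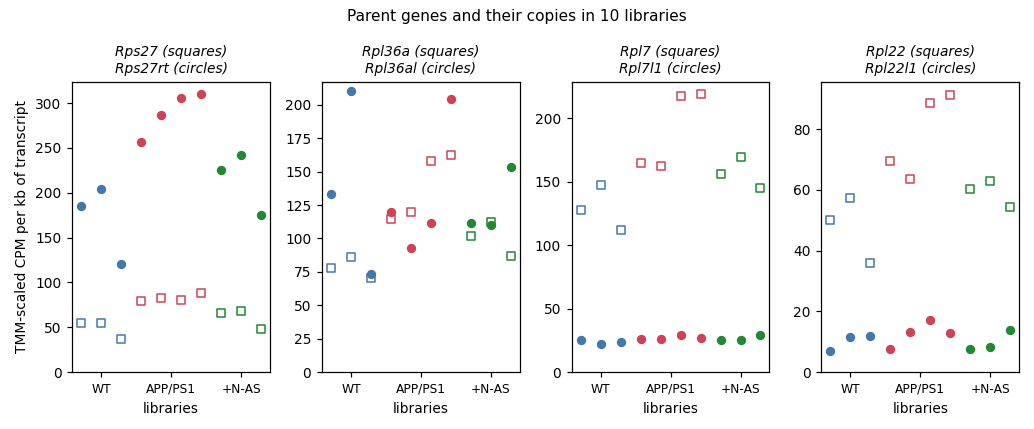
TMM-scaled CPM per kb of transcript of 4 parent genes (open squares) and their copies (filled circles) in the 10 libraries, ordered by group along the horizontal axis; each vertical axis starts at 0. Rps27rt lies above Rps27 in all 10 libraries (121 to 310.1 against 36.3 to 88.2), whereas Rpl7l1 lies between 22.4 and 29.4 in every library.

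The fraction from N-AS-treated APP/PS1 mice had lower mean levels of these messages than that from untreated APP/PS1 mice, but no single gene passed the threshold. In edgeR 0 of the 86 genes were called (lowest adjusted p = 0.494), as were 0% of all genes tested. DESeq2 and limma also called 0 of the 86. At an unadjusted p under 0.05, 43 genes were lower, beside 4.05% of all genes tested, and 0 were higher. In 42 genes every treated library was below every APP/PS1 library, beside 6.46% of all genes. The median log2 fold change was −0.38, a ratio of 0.767, against −0.01 for all genes, and 77 of 77 canonical genes had a negative value between −0.62 and −0.15. With the replicate number as a block, 20 in place of 43 genes had an unadjusted p under 0.05. The third treated library, the one with 29 Xist reads, weighed most: without it 4 genes had an unadjusted p under 0.05, while the count was 15 without APP/PS1 replicate 4, 18 without APP/PS1 replicate 3 and 22 without APP/PS1+N-AS replicate 1. All 77 canonical values stayed negative in each of these fits. The microglial markers had a median of −0.68 in the same comparison (0 of 14 called in edgeR, 11 lower at an unadjusted p under 0.05, and 3 called lower in DESeq2). The oligodendrocyte markers had a median of 0.56 (10 of 10 positive) and the choroid plexus markers of −0.87 (5 of 5 negative). Of the 8 astrocyte markers 5 were negative and 3 positive (median −0.07). Among them Gfap had a log2 fold change of −1.67, called in DESeq2 but not in edgeR. The part of these markers in the values of the ribosomal protein genes was not tested.

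The largest negative values were those of Rplp2, Rps28, Rps23 and Rpl12. Rplp2 had 178, 212 and 145 CPM in the treated libraries against 206 to 332 CPM in APP/PS1, so that 1 treated library overlapped the APP/PS1 group (log2 fold change −0.62, SE 0.20, adjusted p = 0.497, edgeR). Rps28 had a value of −0.59 (SE 0.19) and Rpl12 of −0.53 (SE 0.16), each without overlap of the groups. Rps23, which sits in the decoding centre and guards translational fidelity, had 136, 157 and 128 CPM in the treated libraries and 156, 183, 244 and 240.2 CPM in APP/PS1 (log2 fold change −0.55, SE 0.19, adjusted p = 0.509, edgeR). Its groups overlapped by a single library. Of the members with positive values, Rps19bp1 had 9.82, 9.38 and 5.17 CPM in the treated and 5.54 to 7.34 CPM in the APP/PS1 libraries (log2 fold change 0.31, SE 0.25). Rps4l (0.16, SE 0.27) and Rpl3l (0.09, SE 0.92) were the others, and Rpl7l1 came next at −0.03 (SE 0.11) on the log2 scale.

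Against WT, the fraction from treated mice also had higher mean levels of these messages. In edgeR 0 of the 86 genes were called in APP/PS1+N-AS against WT, beside 0.176% of all genes tested that were called higher, and the lowest adjusted p was 0.228, for Rpl10a. DESeq2 called 1 gene, Rpl10a, and limma 0. At an unadjusted p under 0.05, 24 genes were higher, beside 3.64% of all genes, and in 21 every treated library was above every WT library, beside 4.90% of all genes. The median log2 fold change was 0.33 against −0.04 for all genes, and 77 of 77 canonical genes had a positive value. Rps12, a 40S protein of the beak region, had the largest at 0.66 (SE 0.25), with 101, 108 and 69.2 CPM in the treated libraries and 64.2, 71.1 and 40.3 CPM in WT. Its groups overlapped, and the third library of each group was the lowest. Rpl39 followed at 0.60 (SE 0.21), Rpl10a at 0.59 (SE 0.14) and Rps28 at 0.55 (SE 0.21), while Rpl3l (−0.92, SE 0.95), Rps4l (−0.41, SE 0.28), Rps27l (−0.23, SE 0.28) and Rpl36al (−0.15, SE 0.37) had the lowest values. The count at an unadjusted p under 0.05 was 2 without APP/PS1+N-AS replicate 2, 3 without WT replicate 3, 8 without APP/PS1+N-AS replicate 1 and 11 without WT replicate 1, and it was 44 without WT replicate 2 or without APP/PS1+N-AS replicate 3. In this comparison the microglial markers had a median of 0.99, with 12 of 14 at an unadjusted p under 0.05, 2 called higher in edgeR and 9 in DESeq2. The oligodendrocyte markers had a median of −0.77 (10 of 10 negative). Of the 8 astrocyte markers 4 were positive and 4 negative (median 0.00), and among them Gfap was called higher by all 3 tools (log2 fold change 3.98 in edgeR). The part of these cell type markers in the values was not tested.

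The labels number the libraries from 1 to 10 across the groups, and the values differed between the lower and the higher numbers. For the mean log2 CPM of the canonical genes, APP/PS1 minus WT was 0.49 within libraries 1 to 6 and 1.06 within libraries 7 to 10, with 77 of 77 genes higher in both. APP/PS1+N-AS minus APP/PS1 was −0.13 within libraries 1 to 6, where 66 genes were lower and 11 higher, and −0.74 within libraries 7 to 10, where 77 were lower. APP/PS1+N-AS minus WT was 0.36 and 0.32. Libraries 7 to 10 hold 1 WT and 1 treated library, so the values within them rest on single libraries. The labels do not say what the numbers stand for.

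Other parts of the translation machinery shared the pattern only in part. Fau and Gnb2l1 (the older symbol of Rack1), ribosomal protein genes whose symbols fall outside the rule, were both called higher in APP/PS1 than in WT. Fau, which encodes a 40S protein fused to a ubiquitin-like domain, had 113, 148 and 113 CPM in WT and 259, 262, 304 and 319.8 CPM in APP/PS1 (log2 fold change 1.20, SE 0.18, adjusted p = 0.00464, edgeR), above the largest value of 1.14 among the members. Gnb2l1, a scaffold protein on the 40S head, was higher by 0.76 (SE 0.16, adjusted p = 0.0311, edgeR). Of 15 other factors whose messages carry the TOP motif, 4 were called higher in edgeR, 7 in DESeq2 and 2 in limma, and the median log2 fold change was 0.42. Pabpc1, the poly(A)-binding protein, was higher by 1.19, Eef1b2, an exchange factor of elongation, by 0.87, and Eif3f, a subunit of initiation factor eIF3, by 0.64. The fourth was the elongation factor Eef1a1 (0.84), named after its value was seen. In APP/PS1+N-AS against APP/PS1, DESeq2 called Fau and Pabpc1 lower, and edgeR and limma called neither.

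Genes that make ribosomes, as opposed to forming them, had fold changes around 0. Of 38 ribosome biogenesis factors edgeR called 1, the nucleolar chaperone Npm1 (log2 fold change 0.68), and DESeq2 called 2 higher and 1 lower. Their median was −0.04, with 2 higher and 3 lower in edgeR at an unadjusted p under 0.05. Of 14 genes of RNA polymerase I and its factors 0 were called by edgeR, DESeq2 or limma (0 higher and 2 lower in edgeR at an unadjusted p under 0.05, median −0.01). Of 15 genes of mTORC1 and its S6 kinases edgeR and limma called 0 and DESeq2 called 1, Rps6ka1 (2 higher and 2 lower at an unadjusted p under 0.05, median −0.06). Of 77 mitochondrial ribosomal proteins, which serve the separate ribosomes of mitochondria, 0 were called by any of these tools (2 higher and 2 lower at an unadjusted p under 0.05, median 0.00). Of 22 initiation factors edgeR called 1, the X-linked Eif2s3x (0.76), and DESeq2 3, with a median of 0.14. Of 6 snoRNA host transcripts with a TOP motif 0 were called by any of the tools (0 at an unadjusted p under 0.05, median 0.17). These lists are described by their counts and medians beside the median of −0.07 over all genes, without a test of the difference between lists.

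**Figure D5:**
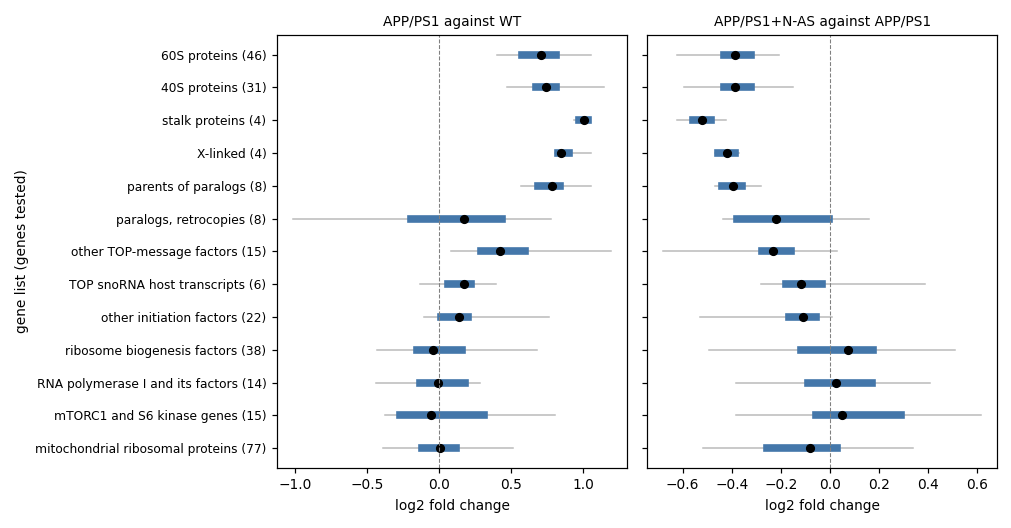
Log2 fold changes of gene lists for APP/PS1 against WT (left) and APP/PS1+N-AS against APP/PS1 (right), with the median as a point, the middle 50% of genes as a thick bar, the full range as a thin line and the number of genes tested in parentheses. On the left the 60S and 40S genes centre on 0.70 and 0.74, and the mitochondrial ribosomal proteins on 0.00.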

How the data were processed

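Total RNA of the microglial fraction was depleted of ribosomal RNA by the authors, made into libraries with the SMARTer Stranded kit and sequenced in pairs. Per the labels, reads were aligned to mm10 with TopHat. The deposited files hold raw read counts per gene symbol, which the authors neither normalized nor filtered; the annotation and the use of strand in counting are not given in the sources used here. Of 24481 lines, 103 share 43 symbols and were summed by symbol.

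Genes were filtered with filterByExpr, scaled by TMM and tested with edgeR 4.0.16 (R 4.3.3, quasi-likelihood test, 1 model of 3 groups), with Benjamini-Hochberg adjustment over 18727 genes and a threshold of 0.05. Calls mean an adjusted p under it. The biological coefficient of variation was 27.4%. Levels are TMM-scaled CPM, with a prior count of 2 on the log2 scale. Errors of levels are SD over libraries. The SE of a fold change was derived from the fold change and the F statistic of the edgeR model of 3 groups. The depth behind each level covers counting error only. The test was checked on simulated counts. DESeq2 1.42.0, limma 3.58.1 (voom, quantile normalization), other scalings, filters and designs, and each library left out in turn were the alternatives. Taking the canonical genes alone was added after the data had been seen.

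The members and the lists were chosen with earlier results of these data known. The genes named are those with the highest levels, the largest fold changes and the lowest adjusted p in each comparison, and the lists of paralogs and their parents, X-linked, stalk and 5S proteins; of other lists, up to 3 with the lowest p. Rps9, Rps12 and Rps23 come in by their fold changes. Same-numbered libraries of APP/PS1+N-AS and APP/PS1 deviated together (r between 0.142 and 0.309 in 3 of 3 pairs). Some differently numbered libraries did so as much. The r was 0.320 for APP/PS1+N-AS 3 with APP/PS1 4 and 0.197 for APP/PS1+N-AS 1 with APP/PS1 2. The replicate numbers of the labels therefore do not establish a pairing. The main test used no replicate block, and a block was run only as an alternative. GENCODE M21 (GRCm38) gave positions and transcript lengths for 88 of 88 members, and RefSeq (GRCm38.p6) the sequences at the gene starts. The quantile-normalized FPKM values of the study were not used here. Of the ribosomal protein genes outside the symbol rule, those not named are not reported here.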

Additional observations from a re-analysis of the deposited data

How the results depend on the processing

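The median log2 fold change of the ribosomal protein genes kept its sign in every alternative run, between 0.60 and 0.84 for APP/PS1 against WT, −0.47 and −0.28 for APP/PS1+N-AS against APP/PS1, and 0.25 and 0.45 for APP/PS1+N-AS against WT. The number called between APP/PS1 and WT did not keep its size. In place of 45 it was 79 at an unadjusted p, 72 in DESeq2, 15 with only the groups compared in the fit and 4 with the replicate number as a block; leaving out 1 library gave 6 to 37. Same-numbered libraries did not deviate together throughout for APP/PS1 and WT (r from −0.49 to 0.44) or for APP/PS1+N-AS and WT (r from −0.14 to 0.35). The block changed no other count of calls. At an unadjusted p, 43 genes passed for APP/PS1+N-AS against APP/PS1 and 24 for APP/PS1+N-AS against WT, where DESeq2 called 1. Without the 5 most abundant members the share of counts was 0.548% in WT and 0.686% in APP/PS1+N-AS, and without the 20 most abundant other genes 0.752% and 0.952%.

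Among the members followed by name in each comparison, signs turned for 5, none of them called. Turns of other members were not followed. For Rpl36al, APP/PS1 against WT was 0.0044 with total counts only and −0.38 to 0.36 with 1 library left out, turning without WT replicate 2 (0.36), APP/PS1 replicate 2 (0.065) or APP/PS1 replicate 3 (0.0071). Its APP/PS1+N-AS against WT was −0.46 to 0.28, turning without WT replicate 2. For Rpl3l, APP/PS1+N-AS against WT was 0.17 in limma, and APP/PS1+N-AS against APP/PS1 was −0.29 to 0.56 with 1 library left out, turning without APP/PS1 replicate 1 (−0.11), APP/PS1 replicate 2 (−0.28) or APP/PS1+N-AS replicate 3. Rps27l was −0.10 to 0.42 in APP/PS1 against WT, turning without WT replicate 3, and −0.49 to 0.033 in APP/PS1+N-AS against WT, turning without WT replicate 1. Rps19bp1 in APP/PS1 against WT was −0.29 to 0.029, turning without WT replicate 2. Rpl7l1 in APP/PS1+N-AS against APP/PS1 was −0.10 to 0.0099, turning without APP/PS1+N-AS replicate 1 or APP/PS1 replicate 3. The cause was not tested. Rpl3l had at most 1.19 CPM in any library. Keeping all genes with at least 1 read moved the median of all genes in APP/PS1 against WT to −0.12.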
